A study of Medicago sativa with 9 samples.

Results

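In leaves of alfalfa (Medicago sativa), long non-coding RNAs that were lowest or highest at the lower of 2 selenite doses were sought with a contrast that set low Se against the mean of the control and high Se group means. The contrast covered every transcript with a mean of at least 0.5 FPKM (a fragment density adjusted for the length of the transcript and the depth of the library) over the 9 libraries, which was 43763 of 64684 listed transcripts, or 67.7%. The nearest transcript inside this limit, MSTRG.10509.1, had a mean of 0.500005 FPKM, and the nearest outside it, MSTRG.74829.1, had 0.499978. The plants were field-grown alfalfa of cultivar Kangsai and carried no genetic change named in the labels. Each group had 3 libraries of rRNA-depleted leaf RNA: control (CK), low Se (selenite at 100 mg/L) and high Se (500 mg/L). Treatment began at a height of 20 cm and comprised 3 sprays at intervals of 7 days, and the labels do not say what the control plants were given. Whether the 3 libraries of a group stem from different plants is not labelled, so that p-values reflect the spread among these libraries alone, possibly a technical one.

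Long non-coding RNAs are transcripts without predicted protein-coding potential. Some act on neighbouring genes, and antisense ones can act on the gene whose opposite strand they share. Plants take up selenite in part through phosphate transporters and assimilate selenium along the sulfur pathway. In many plants small amounts of selenium are tolerated or favour growth while larger amounts are toxic, which is why a response at a low dose need not be a weaker form of the response at a high dose. The design of control, 100 and 500 mg/L allows such a pattern to be looked for, although with 3 points only one turn can be seen.

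The libraries held 1.44 to 2.97 gigabases of aligned sequence, as the ratio of deposited coverage to FPKM implies. The low Se libraries held 1.68, 2.65 and 2.11, within the range of the others. Over the tested transcripts the median was 1.54 to 7.60 estimated reads per library. Control 1 and low Se 1 resembled their own groups least, with a mean Pearson's r across tested transcripts of 0.259 for control 1 and 0.305 for low Se 1, against 0.326 to 0.432 for the other 7. Control 1 was closer on average to the other groups (0.283) than to its own, over transcripts that are not independent replicates. None of the 11 leaf, root, nodule and flower marker names looked for occurs among the 14400 host gene names of the table, so the leaf label was not checked against markers. In such bulk samples fewer cells of a type and less RNA per cell cannot be told apart.

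The low dose stood apart in 13 of 43763 transcripts, 0.0297% of those tested (limma on log2(FPKM + 0.1), Benjamini-Hochberg adjusted p below 0.05). 11 of them (0.0251%) were lower at 100 mg/L and 2 (0.00457%) were higher. In all 13 the 3 low Se values lay apart from the other 6, and 10 of the 11 lower ones had a listing of 0 throughout the low Se group. Over all tested transcripts, low Se lay all below in 1.02%, all above in 1.43% and alone at 0 in 0.288%. The calls were picked on the same values, so their separation is no further support. The same fit called 16 transcripts (0.0366%) when control was set against the mean of the doses, and 8 (0.0183%) when high Se was set against the other 2 groups. The count for the low dose lay between those of the other groups, and whether the counts differ was not tested. A call in this contrast is not in itself a turn at the middle dose, since 3 of the 11 lower and 0 of the 2 higher calls also passed against each of the neighbouring groups. All 13 calls rested on a spread modelled with the mean level: without that variance trend limma made 0 calls (3658 transcripts at an unadjusted p under 0.05). The balance of directions rested on the value added before taking logarithms: with 1 FPKM added, 7 transcripts were lower and 15 higher. An unadjusted p under 0.05 was reached by 1642 lower and 1592 higher transcripts. Without both control 1 and low Se 1 the fit called 6 lower and 1 higher, none of them among the 13. With 1 library left out, limma made 0 calls without high Se 1 (3301 transcripts at an unadjusted p under 0.05) or high Se 2 (2955 transcripts), 1 without control 2 or control 3, 3 without high Se 3, 8 without low Se 2, 22 without control 1 and 28 without low Se 1.

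The largest called drop on the log2(FPKM + 0.1) scale belonged to the intergenic MSTRG.131912.1. This transcript has 1 exon and 259 bases on the minus strand of chromosome 7.3 (44910876 to 44911134). Its FPKM was 7.45, 5.62 and 8.19 in control, 0 in every low-dose library and 31.8, 21.3 and 9.48 at the high dose. The lowest of the 6 other libraries was thus well above all 3 low Se ones. The contrast was -6.85 ± 0.74 (SE) on the log2(FPKM + 0.1) scale, with a limma adjusted p of 0.00311. For this and the other transcripts listed at 0, that size and its rank depend on the 0.1 added, and no fold change is given. With 1 FPKM added, the contrast was -3.65 for MSTRG.131912.1 and -3.94 for MSTRG.515.1. The low Se values of transcripts listed at 0 are identical and add no spread to the estimate that all groups share. Their SE and p-values therefore do not measure the spread at the low dose. At the mean level of the other 6 libraries, the low Se libraries would have held 43.1 to 67.9 estimated reads. A second form of the locus, MSTRG.131912.2, was above 0 only in high Se 1 (2.77 FPKM) and high Se 2 (2.82). The call of MSTRG.131912.1 was lost in 2 of the 9 fits that left out 1 library, and its adjusted p was 0.0501 without both control 1 and low Se 1.

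A drop at the low dose was also separately significant against each neighbouring group for 3 of the 11 lower transcripts, although both tests use the same low Se libraries. Over all tested transcripts 12 (0.0274%) passed between low Se and control and 9 (0.0206%) between the doses. MSTRG.131912.1 had limma adjusted p-values of 0.0143 against control and 0.0059 against high Se. The second was MSTRG.112200.1, antisense to MS.gene05222 on the plus strand of chromosome 6.2 (77578082 to 77598851), whose 2 exons hold 312 bases of a span of 20770. It had 4.23, 6.42 and 12.8 FPKM in control leaves, 0 in every low-dose library and 11.4, 5.33 and 6.84 at the high dose. Control and high Se overlapped, and the adjusted p was 0.0301 against control and 0.0375 against high Se. The third, the intergenic MSTRG.4787.1 (263 bases, 1 exon, scaffold 51888, 23131 to 23393), had 6.73, 3.05 and 8.63 FPKM in control leaves and 11.6, 7.58 and 5.73 at the high dose, again around a listing of 0 at the low dose. Its adjusted p was 0.042 against control and 0.0375 against high Se. The contrast of MSTRG.112200.1 was -6.20 ± 0.80 and that of MSTRG.4787.1 was -6.09 ± 0.81 (SE), each with a limma adjusted p of 0.0095, and each was lost in 5 of the 9 fits without 1 library.

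On the opposite strand of chromosome 6.2, MSTRG.112201.1 overlaps MSTRG.112200.1 (77578085 to 77614822, sense-overlapping, host gene MS.gene05223). This neighbour was chosen with its values in view. It had 2.17, 2.35 and 6.77 FPKM in control leaves, 0 in every low-dose library and 1.95, 0.727 and 0 at the high dose, and did not pass (limma adjusted p = 0.48). High Se 3 was also listed at 0 here, so low Se did not lie apart from high Se, unlike in MSTRG.112200.1.

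**Figure D1:**
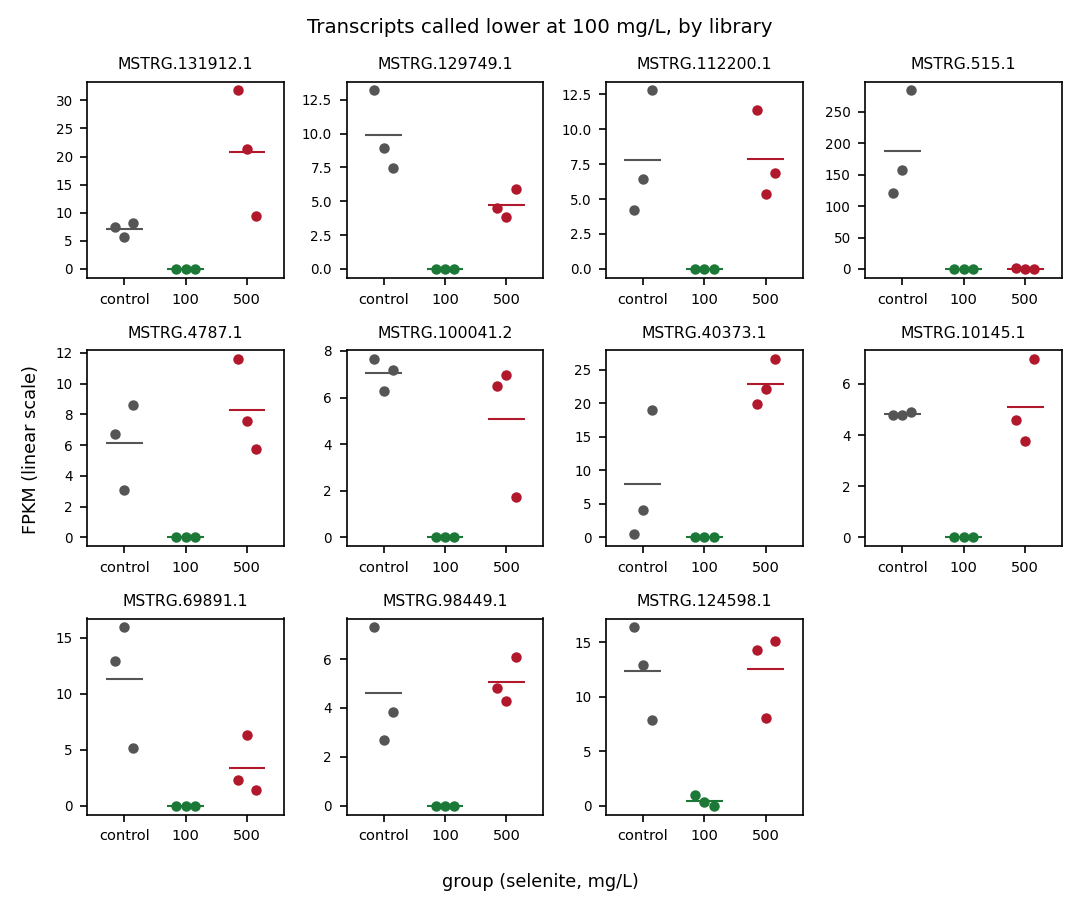
FPKM (linear y axis, scaled per panel) of the 11 transcripts called lower at 100 mg/L, by group (x axis), with 1 point per library and a line at the mean of 3. In 10 panels all 3 low Se points lie at 0, and MSTRG.515.1 is also near 0 at 500 mg/L, with 0.102 to 0.848 FPKM.

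Another 3 lower transcripts had similar levels in control and at the high dose and passed neither pairwise test. MSTRG.10145.1 shares a splice junction with MS.gene006292 (3 exons, 387 bases, chromosome 1.1, 72469213 to 72469910). It had 4.79, 4.80 and 4.90 FPKM in control leaves, 0 in every low-dose library and 4.57, 3.76 and 6.98 at the high dose (contrast -5.64 ± 0.83 SE, limma adjusted p = 0.0217). The 3 control values were nearly equal, and the high Se values lay on both sides of them. MSTRG.98449.1, which is intergenic and 240 bases long, on chromosome 5.3 (18856456 to 18856695), had 7.29, 2.68 and 3.85 FPKM in control leaves and 4.83, 4.27 and 6.09 at the high dose, with 0 in every low-dose library (limma adjusted p = 0.0262). Depth was thinnest here: at the mean of the other 6 libraries the low Se libraries would have held 13.8 to 21.8 estimated reads. MSTRG.124598.1 (269 bases, chromosome 7.2, 10702132 to 10702400) was the 1 lower transcript still seen at the low dose. It had 16.4, 12.9 and 7.91 FPKM in control leaves, 1.05, 0.382 and 0 at the low dose and 14.3, 8.11 and 15.2 at the high dose (contrast -4.98 ± 0.79 SE, limma adjusted p = 0.0338). Each of MSTRG.98449.1 and MSTRG.124598.1 was lost in 8 of the 9 fits without 1 library and MSTRG.10145.1 in 7.

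The remaining 5 lower transcripts passed against only 1 neighbouring group, 4 of them against control and 1 against high Se. MSTRG.515.1 (1 exon, 1112 bases, scaffold 15132, 67110 to 68221) was called in the contrast although it was not a low-dose turn in level. It had 121, 158 and 284 FPKM in control leaves, 0 at the low dose and 0.848, 0.149 and 0.102 at the high dose, so both doses were far below control. Against high Se its difference was -1.86 on the log2 scale, with a limma adjusted p of 0.625. MSTRG.129749.1 (1300 bases, chromosome 7.3, 11490855 to 11492154) had 13.2, 8.92 and 7.49 FPKM in control leaves and 4.52, 3.85 and 5.87 at the high dose, and all high Se values were below all control ones. Its adjusted p was 0.0143 against control and 0.0566 against high Se. MSTRG.69891.1 (416 bases, chromosome 4.1, 48479431 to 48479846) had 12.9, 15.9 and 5.14 FPKM in control leaves and 2.35, 6.36 and 1.44 at the high dose, with adjusted p-values of 0.0301 against control and 0.203 against high Se. Its neighbour at higher coordinates, MSTRG.69892.1, named after its values were seen, had 5.88 and 3.67 FPKM in control 1 and 2, at most 0.885 at the high dose and 0 elsewhere, and did not pass (limma adjusted p = 0.712). Only against high Se did MSTRG.40373.1 pass, which is antisense to MS.gene89082 (254 bases in 2 exons over 17653 bases of chromosome 2.4, 2426888 to 2444540). It had 0.522, 4.16 and 19.1 FPKM in control leaves and 20.0, 22.2 and 26.6 at the high dose, with adjusted p-values of 0.129 against control and 0.0375 against high Se. With 1 library left out, the contrast call was lost in all 9 fits for MSTRG.69891.1, in 8 for MSTRG.40373.1, in 5 for MSTRG.129749.1 and in 4 for MSTRG.515.1. In the fit of 2 groups, which joins control and high Se, the limma adjusted p of MSTRG.515.1 was 0.348.

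MSTRG.100041.2, the last of the 5, is 1 of 6 listed forms of a spliced intergenic locus on the plus strand of chromosome 5.3. The called form (7 exons, 1110 bases, 56577912 to 56580462) had 7.66, 6.27 and 7.19 FPKM in control leaves, 0 at the low dose and 6.5, 6.96 and 1.73 at the high dose (limma adjusted p = 0.0217, lost in 8 of the 9 fits without 1 library). Its limma adjusted p was 0.042 against control and 0.0975 against high Se. Control and high Se overlapped, and high Se 3 alone was well below control. Summed over the 6 forms, the locus had 16.8, 16.2 and 20.9 FPKM in control leaves, 5.97, 1.41 and 3.69 at the low dose and 29.7, 45.5 and 15.1 at the high dose. All 3 low Se libraries thus held some of the locus, each below the other 6. The summed difference between low Se and the other 6 libraries was -20.3 FPKM, given with no test because the locus was chosen for its called form. Without the called form the other 5 had 9.14, 9.97 and 13.7 FPKM in control leaves, 5.97, 1.41 and 3.69 at the low dose and 23.2, 38.5 and 13.3 at the high dose, with no overlap between low Se and the rest. Forms of 1 locus share reads, so these sums are not independent of the called form. Among the single forms, MSTRG.100041.5 (214 bases) had 2.64, 2.63 and 3.95 FPKM in control leaves, 0, 0 and 0.498 at the low dose and 7.65, 11.7 and 3.53 at the high dose, and did not pass (limma adjusted p = 0.114). MSTRG.100041.6 had the opposite order of means, 0.331 FPKM in control leaves, 1.33 at the low dose and 0.544 at the high dose, with overlapping groups (limma adjusted p = 0.742). The other 3 forms, MSTRG.100041.1, MSTRG.100041.3 and MSTRG.100041.4, had limma adjusted p-values of 0.693, 0.62 and 0.969.

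Only 2 transcripts were called higher at the low dose, and neither passed against both neighbours. MSTRG.130637.1, an intergenic transcript of 1 exon and 1127 bases on chromosome 7.3 (23915702 to 23916828), had 39.1, 46.2 and 46.4 FPKM at the low dose. It had 5.998, 0.174 and 0 FPKM in control leaves and 0.117, 0 and 0 at the high dose, so control 1 alone held more than a trace outside the low Se group. Its contrast was 7.36 ± 1.12 (SE) with a limma adjusted p of 0.0262, from adjusted p-values of 0.124 against control and 0.0442 against high Se. The reads behind it were many, with 525, 979 and 784 estimated reads in the low Se libraries. MSTRG.69946.1 (1148 bases, chromosome 4.1, 49415291 to 49416438) had 78.4, 30.7 and 34.0 FPKM at the low dose, 13.0, 9.82 and 0.315 at the high dose and 0 in each control library. High Se lay between the other groups in every library (contrast 6.15 ± 0.99 SE, limma adjusted p = 0.0404; 0.00977 against control and 0.461 against high Se). MSTRG.130637.1 was lost in 8 and MSTRG.69946.1 in all 9 of the fits without 1 library.

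The next 3 by p in this direction did not pass. MSTRG.15485.1 (499 bases, chromosome 1.2, 73612197 to 73612695) had 13.4, 14.7 and 18.6 FPKM at the low dose, 5.00, 11.1 and 3.23 at the high dose and 0 in control (limma adjusted p = 0.0755). MSTRG.46217.1, a sense-overlapping transcript with 221 bases of exon over 23330 bases of chromosome 3.1 (host gene MS.gene76173), had 23.9, 16.3 and 19.7 FPKM at the low dose and was listed at 0 elsewhere except for 3.43 in high Se 2 (limma adjusted p = 0.0788). MSTRG.61101.1 (714 bases, chromosome 3.4, 7565603 to 7566316) had 4.88, 10.6 and 8.04 FPKM at the low dose and 0 in the other 6 libraries (limma adjusted p = 0.111). Just inside the threshold of 0.05 stood MSTRG.69946.1 at 0.0404, and just outside it MSTRG.23252.1 at 0.0683, with 6.23, 7.99 and 3.12 FPKM in control leaves, 0 in every low-dose library and 2.35, 6.998 and 1.58 at the high dose.

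**Figure D2:**
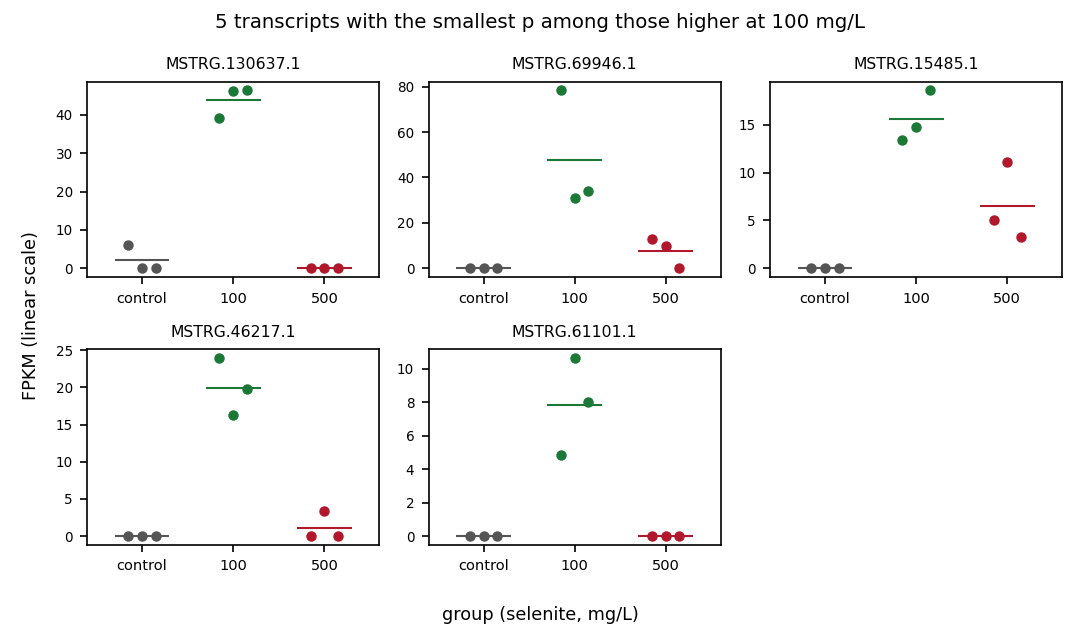
FPKM (linear y axis, scaled per panel) of the 5 transcripts with the smallest p among those higher at 100 mg/L, by group (x axis), with 1 point per library and a line at the mean of 3. All low Se points lie above the other 6 in each panel, and MSTRG.130637.1 and MSTRG.69946.1 passed.

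Of the 13 called transcripts, 10 were intergenic, 2 antisense and 1 junction-sharing, and no intronic or sense-overlapping one was called. Intergenic transcripts made up 66.8% of all those tested, intronic ones 23.2%, junction-sharing ones 4.62%, sense-overlapping ones 3.05% and antisense ones 2.27%. A single exon was found in 9 of the 13, against 76.0% of all tested. No strand was given for 8 of the 13, against 65.4% of all tested, so the strand these stem from is not known. All 8 were classed as intergenic, with no host gene named. The median length was 312 bases for the 11 lower ones, 1137.5 for the 2 higher ones and 352 for all tested. Chromosome 7.3 held 3 of the 13 and 3.22% of the tested transcripts, and chromosomes 4.1 and 5.3 held 2 each (3.04% and 2.59% of the tested). Unplaced scaffolds held 2 of the 13, against 5.06% of all tested. With so few calls, none of these shares was tested.

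Complete separation of the groups, which needs no added value, was more frequent than the calls. In 448 tested transcripts (1.02%) all 3 low Se values lay below the other 6, and in 627 (1.43%) all lay above. The corresponding numbers were 601 (1.37%) below and 691 (1.58%) above for control, and 230 (0.526%) below and 1190 (2.72%) above for high Se. Separation at the low dose was thus no more frequent than for control in either direction. By group means of log2(FPKM + 0.1), low Se was the lowest group in 35.5% of tested transcripts and the highest in 29.7%, against 40.4% and 30.5% for control and 24.1% and 39.9% for high Se. Among the 448 below, antisense transcripts made up 3.79% and intronic ones 18.1%. By class, 1.71% of antisense, 1.10% of intergenic, 0.899% of sense-overlapping, 0.841% of junction-sharing and 0.796% of intronic transcripts were below, and 1.31%, 1.43%, 1.95%, 1.14% and 1.45% in the same order were above.

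Part of this separation consisted of listings at 0. 126 transcripts (0.288%) were listed at 0 in all low Se libraries and above 0 in the other 6, and 111 (0.254%) were above 0 in all low Se libraries and in no other. For control these counts were 185 (0.423%) and 113 (0.258%), and for high Se 37 (0.0845%) and 223 (0.51%). Most of the 126 were scarce: the median of their mean over the other 6 libraries was 1.95 FPKM, and 20 had at least 1 FPKM in each of the 6. At those levels the low Se library of least depth would have held a median of 9.003 estimated reads, and 58 of the 126 would have held 10 or more. Such read numbers concern depth alone, and other reasons for a listing of 0 were not tested. 10 of the 126 were called. None of the 111 was called (smallest limma adjusted p 0.111), and the unadjusted p under 0.05 of 110 of them follows from how they were chosen. The 111 had a median mean of 2.38 FPKM at the low dose. The highest of them by mean, named after its values were seen, was MSTRG.133503.1 with 31.7, 1.89 and 0.26 FPKM, so 1 library carried most of its signal.

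**Figure D3:**
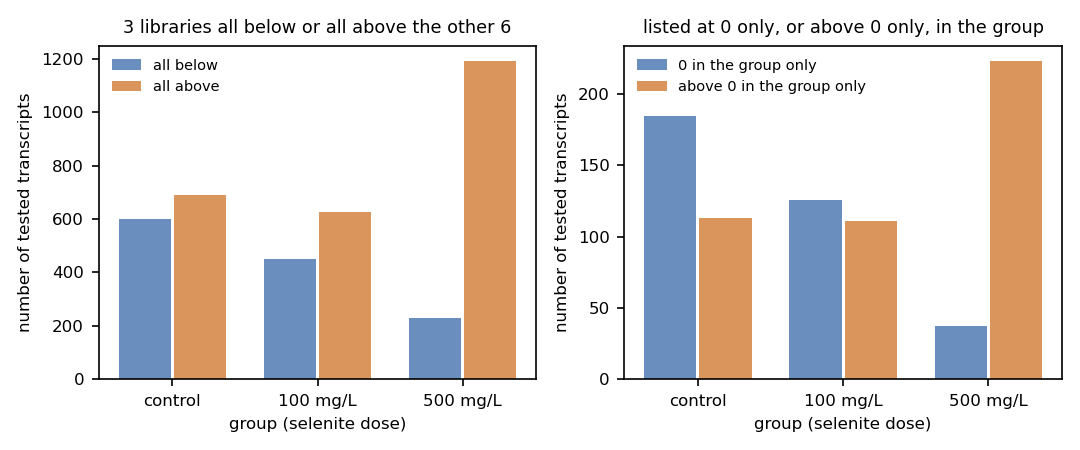
Numbers of tested transcripts (y axes, linear from 0) whose 3 libraries of a group (x axes) lay all below or all above the other 6 (left), or were alone listed at 0 or alone above 0 (right). Low Se, with 448 and 627 on the left and 126 and 111 on the right, lies below control in each of the 4 counts.

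Transcripts above 0 in all 9 libraries allow the size of a low-dose difference to be given as a fold of mean FPKM. Of 7475 such transcripts, none was called in the contrast (0%). In 144 (1.93%) the low Se values were all below the other 6 and in 114 (1.53%) all above, against 154 (2.06%) and 126 (1.69%) for control and 101 (1.35%) and 194 (2.6%) for high Se. The 144 and 114 were chosen for this separation, which also favours small p-values and large folds. An unadjusted p under 0.05 was reached by 74 of the 144 and 43 of the 114, and the median fold was 3.38 and 2.76, all as a description. By class the 144 comprised 103 intergenic, 26 intronic, 6 antisense, 5 sense-overlapping and 4 junction-sharing transcripts, and the 114 comprised 63, 35, 4, 9 and 3 in the same order. The 7475 themselves comprised 62.7% intergenic, 24.1% intronic, 3.36% antisense, 5.07% sense-overlapping and 4.83% junction-sharing transcripts. Whether the class shares differ was not tested.

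The 5 with the smallest p below did not pass, with limma adjusted p-values from 0.114 to 0.223. MSTRG.70186.1 (intergenic, 1110 bases, chromosome 4.1, 58268137 to 58269246) had 5.81, 9.19 and 6.85 FPKM in control leaves, 0.485, 0.48 and 1.44 at the low dose and 12.3, 10.3 and 9.14 at the high dose. Its mean was 11.1-fold lower at the low dose than in the other 6 libraries. MSTRG.32508.1 (intergenic, 1108 bases, chromosome 2.2, 12145193 to 12146300) was among the more abundant, with 107, 128 and 124 FPKM in control leaves, 34.5, 51.7 and 10.8 at the low dose and 205, 89.2 and 188 at the high dose, a 4.34-fold lower mean. It stood on at least 179 estimated reads in every library. MSTRG.138893.1, a spliced intergenic transcript of 2 exons on chromosome 8.1 (2855774 to 2856591), had 60.6, 39.6 and 96.7 FPKM in control leaves, 9.15, 6.72 and 1.33 at the low dose and 53.9, 64.9 and 14.0 at the high dose. The intronic members were MSTRG.17703.1 within MS.gene054108, with a 10.5-fold lower mean at the low dose, and MSTRG.67695.1 within MS.gene08404, with a 4.65-fold lower mean. For MSTRG.17703.1 the gap was narrow, from 2.03 FPKM in low Se 1 to 2.61 in control 3.

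Above the other 6 the adjusted p-values of the leading 5 were 0.238 to 0.353, and none passed. MSTRG.91849.2 (intergenic, minus strand, 1660 bases, chromosome 5.1, 70248193 to 70249852) had the tightest groups. It had 32.5, 26.7 and 34.7 FPKM in control leaves, 92.7, 101 and 64.2 at the low dose and 27.1, 27.9 and 33.6 at the high dose. Control and high Se overlapped, and the low Se mean of 86.1 ± 19.4 FPKM (SD, n = 3) was 2.83-fold that of the other 6 (contrast 1.48 ± 0.41 SE, limma adjusted p = 0.326). MSTRG.3006.3 on scaffold 41095 (2 exons, 15385 to 25856) had 199, 98.4 and 79.0 FPKM at the low dose against 35.8, 48.4 and 10.8 in control and 4.06, 29.4 and 26.4 at the high dose, 4.86-fold on the mean. MSTRG.157543.1 (chromosome 8.4, 64019700 to 64020809) had 7.64, 10.4 and 10.1 FPKM at the low dose, at most 0.973 in control and 0.123, 4.15 and 1.67 at the high dose. The sense-overlapping MSTRG.152446.1, with host gene MS.gene88410, was at 1.89, 14.4 and 13.6 FPKM at the low dose and up to 1.83 at the high dose, so low Se 1 hardly left the range of the others. The intronic MSTRG.119262.1 within MS.gene066544 had 9.46, 24.5 and 15.9 FPKM at the low dose and at most 6.72 elsewhere.

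**Figure D4:**
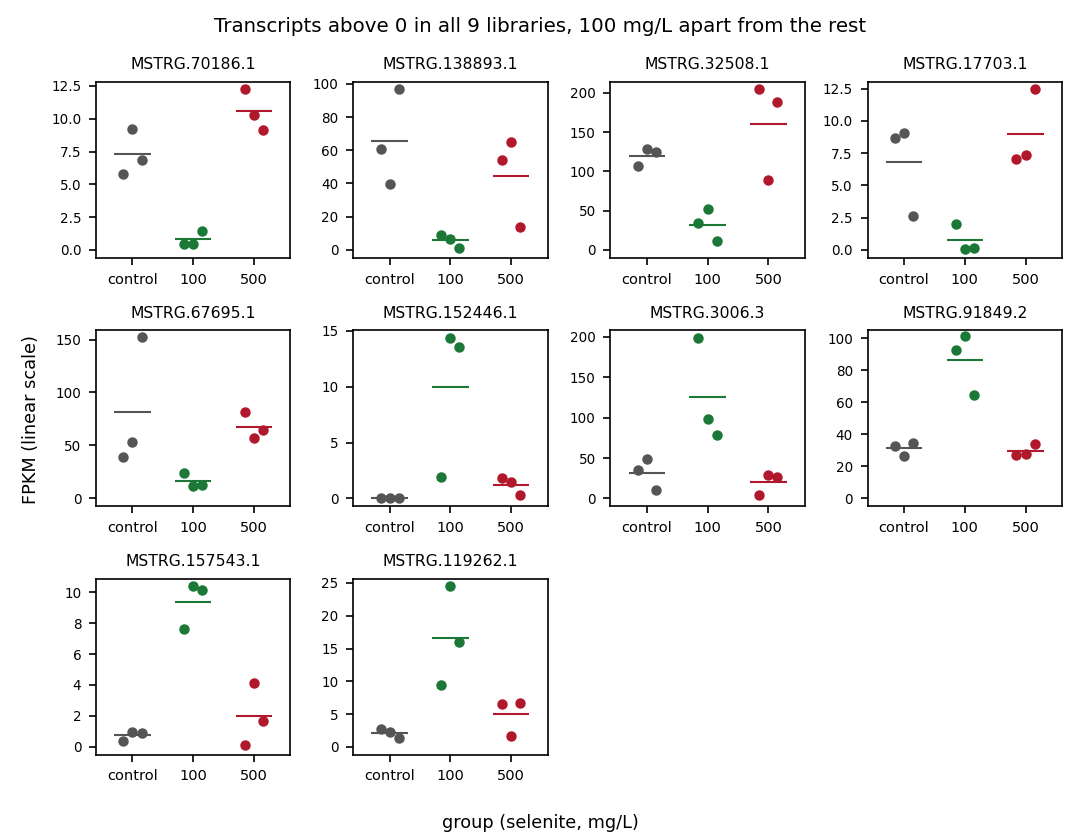
FPKM (linear y axis, scaled per panel) by group (x axis) of 10 transcripts above 0 in all 9 libraries whose low Se values lie all below (first 5 panels) or all above (last 5) the rest, with 1 point per library and a line at the mean of 3. None passed in limma, and the lowest adjusted p was 0.114.

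The 5 most abundant transcripts showed no call in the contrast. The highest mean of MSTRG.105411.1, which is intergenic (327 bases, chromosome 5.4), was at the low dose, with 17716, 24658 and 23382 FPKM. Control (15113, 14802 and 18833) reached above the lowest of these, and high Se had 17327, 12109 and 12565, giving a contrast of 0.54 ± 0.31 (SE) and a limma adjusted p of 0.724. The contrasts of the other 4 (MSTRG.91972.1, MSTRG.91972.2, MSTRG.100870.1 and MSTRG.21071.1) were 0.14 ± 0.31, 0.22 ± 0.48, 0.29 ± 0.34 and -0.31 ± 4.17 (SE), with limma adjusted p-values of 0.919, 0.92, 0.85 and 0.99.

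Class by class, the low dose did not differ detectably from the other 6 libraries. The mean of log2(FPKM + 0.1) over 29241 intergenic transcripts was -0.73, -0.65 and -1.06 at the low dose, against -0.81 ± 0.27 in control and -0.53 ± 0.06 at the high dose (SD, n = 3 each; exact permutation p = 0.357). The antisense class had the widest difference, with -0.16, 0.28 and -0.50 at the low dose, -0.13 ± 0.29 in control and 0.44 ± 0.08 at the high dose, a difference of -0.28 from the other 6 (exact two-sided permutation p = 0.333, 0.714 after adjustment over the 5 classes). The low Se mean lay just below that of control in the intergenic class and between those of control and high Se in the other 4. The differences of the intronic, sense-overlapping and junction-sharing classes were -0.06, -0.11 and -0.13 (exact permutation p of 0.762, 0.667 and 0.429), and those of the first 2 turned to 0.06 and 0.02 after quantile normalisation. The number of transcripts above 0 was 30804 ± 2676 at the low dose (SD, n = 3), 30047 ± 4221 in control and 35092 ± 1790 at the high dose, and no difference between low Se and the other 6 was detected (difference -1765, exact permutation p = 0.524). Over all tested transcripts the median contrast was -0.14 on the log2 scale, -0.10 with median-of-ratios scaling and -0.02 under quantile normalisation. The part of this shift in the calls was not tested. How far the greater number of transcripts detected at the high dose enters the calls was not tested.

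**Figure D5:**
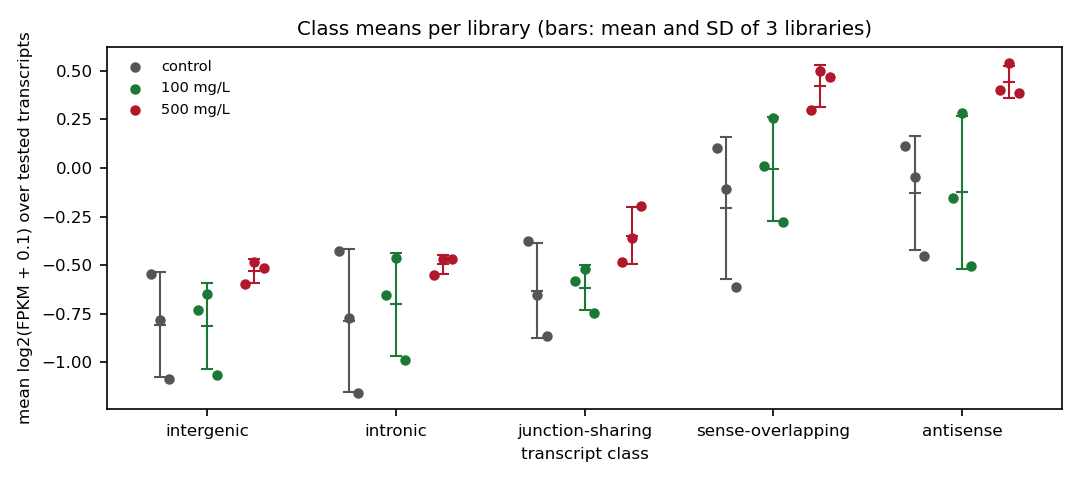
Mean log2(FPKM + 0.1) per library (y axis) over the tested transcripts of 5 classes (x axis), with 1 point per library and bars for the mean and SD of 3. In every class the low Se points overlap those of control, and the high Se means are the highest.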

How the data were processed

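Leaf RNA of 9 libraries, 3 per group, was analysed from 1 deposited table of predicted lncRNAs. Per the submitters' processing notes the tools were StringTie, HISAT2, edgeR and Bowtie2, without roles or versions, and the genome build is not given in the sources used here. Per the file headers, the deposited values are FPKM, which are scaled for length and depth, and mean per-base coverage, a signal that is unscaled. The authors' coding potential scores were not used further. In either measure a value of 0.0001, which the authors wrote for a 0, was taken as 0. The depth behind a value was estimated as coverage multiplied by length, divided by 141 bases, since whole values clustered at multiples of 141. These are not counts, and no count test was run.

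Values were analysed as log2(FPKM + 0.1) for every transcript averaging 0.5 FPKM or more. Limma 3.58.1 (R 4.3.3) was fitted to all 9 libraries with a variance trend, and the contrast was low Se minus the mean of control and high Se. Benjamini-Hochberg adjustment covered all 43763 tested transcripts, and calls had an adjusted p below 0.05. Fold changes on this scale understate changes of low values. Class means and detected transcripts were compared by exact two-sided permutation over samples, whose smallest p is 0.0238. The limma fit was checked on simulated normal values that had the same spread in every group. No simulated group stood at 0 throughout, as low Se did in 10 of the 11 lower calls. The check therefore does not cover such transcripts. Alternatives covered the added value, filter, scaling, variance model, weights, replicate block, the form of the contrast, the threshold and each library left out.

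The text names the called transcripts (up to 15 per direction, or the 5 with the smallest p where fewer than 5 passed), 5 per direction above 0 in all libraries with low Se apart from the rest, the 5 most abundant, and other forms of the loci. The contrast, members and lists were chosen with earlier results of these data known. No host gene name occurs among the identifiers of the RefSeq table at hand (assembly Bolivia_mono), so host gene functions are not given. Copies on homologous chromosomes and paralogs can share reads, which makes single transcripts uncertain. Other steps ran in Python 3.11.15 with matplotlib 3.10.9, pandas 2.3.3, SciPy 1.17.1 and NumPy 2.4.6.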

Additional observations from a re-analysis of the deposited data

How the results depend on the processing

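The 11 lower and 2 higher calls at the low dose moved with most choices, and the cause was not tested unless stated. With 1 FPKM added they became 7 lower and 15 higher, and with 0.01 added 10 lower and 0 higher in limma, where 1482 transcripts were higher at an unadjusted p under 0.05. Without the filter 18 were lower and 3 higher, and with a mean of at least 2 FPKM 8 were lower and 0 higher (337 higher at an unadjusted p under 0.05). Quantile normalisation left 10 lower and 1 higher, weights for libraries gave 14 lower and 1 higher, and the 2-group fit gave 16 lower and 2 higher. Without the variance trend limma called 0 lower and 0 higher, while 3658 transcripts had an unadjusted p under 0.05. At an adjusted p below 0.1 there were 18 lower and 4 higher, by the construction of a looser threshold. With 1 library left out the lower count ranged from 0 to 26 and the higher count from 0 to 8. Leaving out control 1 together with low Se 1, a choice made with the data seen, 6 were lower and 1 higher. Median-of-ratios rescaling kept all 13 calls.

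Transcripts with all low Se values below the other 6 numbered 581 to 1177 with 1 library left out, and those above 764 to 2148. Without both control 1 and low Se 1 they were 1608 and 2778, as fewer libraries separate more easily. With a mean of at least 2 FPKM they were 205 and 164 of 10205 tested transcripts, against 448 and 627 of 43763 in the main setting. More thus lay below than above, the reverse of the main order, and the cause was not tested. Leaving out 1 library moved the difference in detected transcripts between -3084.5 and -409.5. Class differences kept their sign except for the intronic class, at 0.0603 after quantile normalisation and 0.0772 without low Se 3, and the sense-overlapping class, at 0.0183 and 0.0042. With 1 library left out the intronic difference ranged from -0.19 to 0.0772, the sense-overlapping from -0.26 to 0.0042, the antisense from -0.50 to -0.10, the intergenic from -0.25 to -0.04 and the junction-sharing from -0.20 to -0.06. Among named transcripts, MSTRG.100041.4 turned from -0.32 to 0.63 with 0.01 FPKM added, and lay between -1.31 and 0.39 when 1 library was left out.

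Deviations of same-numbered libraries correlated at -0.0302 to 0.0015, and those of differently numbered ones at -0.0296 to 0.0346. No pairing by replicate number was seen, although at so few reads per transcript a pairing could be missed. With the replicate block, 10 transcripts were lower and 2 higher, and 12 of the 13 calls remained. Fits that leave a group with 2 libraries assume a common spread for all groups.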
